A study of Mus musculus with 6 samples.

Results

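The genes described here are 40 genes of the NRF2 pathway and of the enzymes that remove peroxides, superoxide and electrophiles, chosen by symbol from a gene table of mouse alveolar macrophages. All 40 symbols were found among the 26428 genes of the table, and all 40 had enough counts to be tested, as did 14797 genes in all. RNA was sequenced from alveolar macrophages, the resident phagocytes of the air spaces, isolated from mouse lung. Controls are labelled Rack1F/- by genotype (3 libraries), and the myeloid Rack1 knockout is labelled Rack1{delta}Mye (3 libraries). RACK1 sits on the small ribosomal subunit, where it docks kinases and other signalling proteins. The titles call the same control libraries WT, while the genotype label names a Rack1 allele marked F and one marked -, and the labels do not say what these marks stand for. The Cre driver, age and sex of the mice and any pooling of animals are not given in the sources used here. No source used here says whether each library is a different animal, and the p-values therefore measure only the spread between these samples.

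NRF2, encoded by Nfe2l2, is a transcription factor that KEAP1 holds in the cytoplasm and hands to the proteasome. Electrophiles and oxidants modify cysteines of KEAP1, and NRF2 then enters the nucleus, pairs with a small MAF protein and binds antioxidant response elements near its target genes. The targets import cystine, make and recycle glutathione and thioredoxin, supply NADPH, and reduce or conjugate reactive compounds. Alveolar macrophages live at high oxygen, take up particles and surfactant, and are known for a strong antioxidant programme.

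The promoters of 4 genes that passed the test are printed because they hold the letters of an antioxidant response element core. Each run is 300 bases, 250 before and 50 from the start site on, 5′ to 3′ on the strand of the gene, from RefSeq on GRCm38.p6. Capitals mark the 9 letters TGACNNNGC or TGAGNNNGC, or their reverse complement. Nfe2l2 lies at chr2:75704614-75704913 on the minus strand, Srxn1 at chr2:152105274-152105573 on the plus strand, Slc7a11 at chr3:50443564-50443863 on the minus strand and G6pdx at chrX:74428831-74429130 on the minus strand.
Nfe2l2: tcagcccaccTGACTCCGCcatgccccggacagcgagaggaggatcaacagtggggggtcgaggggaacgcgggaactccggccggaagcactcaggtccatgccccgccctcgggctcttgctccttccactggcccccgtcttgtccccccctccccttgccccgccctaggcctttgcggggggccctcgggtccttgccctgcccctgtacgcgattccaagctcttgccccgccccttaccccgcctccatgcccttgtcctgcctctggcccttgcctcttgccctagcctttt
Srxn1: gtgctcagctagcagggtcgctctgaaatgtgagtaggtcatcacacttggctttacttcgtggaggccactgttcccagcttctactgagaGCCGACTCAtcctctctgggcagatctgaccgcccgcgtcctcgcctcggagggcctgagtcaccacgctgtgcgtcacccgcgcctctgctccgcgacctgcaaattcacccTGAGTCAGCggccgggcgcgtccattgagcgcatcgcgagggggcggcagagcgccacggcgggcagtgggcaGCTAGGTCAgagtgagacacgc
Slc7a11: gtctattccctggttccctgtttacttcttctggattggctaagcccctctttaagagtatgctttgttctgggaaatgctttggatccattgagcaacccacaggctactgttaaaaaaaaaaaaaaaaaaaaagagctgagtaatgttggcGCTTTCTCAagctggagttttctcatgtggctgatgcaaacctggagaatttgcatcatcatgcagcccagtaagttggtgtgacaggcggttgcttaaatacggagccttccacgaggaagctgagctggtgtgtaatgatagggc
G6pdx: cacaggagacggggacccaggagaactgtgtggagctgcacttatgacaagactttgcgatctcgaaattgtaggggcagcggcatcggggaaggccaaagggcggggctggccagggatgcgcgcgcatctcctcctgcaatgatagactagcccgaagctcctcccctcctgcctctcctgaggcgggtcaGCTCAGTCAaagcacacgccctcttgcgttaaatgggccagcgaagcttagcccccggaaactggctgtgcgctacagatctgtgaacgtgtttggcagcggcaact
The match of Nfe2l2 begins 240 bases before the start site, that of Slc7a11 97 bases before it and that of G6pdx 57 bases before it. Srxn1 holds 3 matches, and the middle one, TGAGTCAGC, also holds TGANTCA, the letters of an AP-1 site. For comparison, short stretches of 4 genes that did not pass the test are given, since Prdx1, Gclm, Txnrd1 and Gstp1 are textbook NRF2 targets.
Prdx1: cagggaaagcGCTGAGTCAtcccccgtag
Gclm: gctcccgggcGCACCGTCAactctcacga
Txnrd1: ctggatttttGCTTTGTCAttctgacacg
Gstp1: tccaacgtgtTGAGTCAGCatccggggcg
The stretches of Prdx1 and Gstp1 hold TGANTCA as well. Promoters were matched for 35 of the 40 genes, as 45 windows, and not for Prdx6, Gsta4, Gsr, Gclc and Sod3. On either strand, TGACNNNGC stood in 10 of the 45 windows (22.2%), in 14.4% of the windows of all genes tested and in 12.4% of all 32851 RefSeq windows of that length. TGAGNNNGC stood in 6 of the 45 windows (13.3%), in 19.7% of those of all genes tested and in 17.65% of all windows. At least one of the pair stood in 4 of 12 windows of the genes that passed the test (33.3%), in 10 of 33 windows of the others (30.3%), in 31.3% of the windows of all genes tested and in 27.8% of all windows. Over all 45 windows that share was 31.1%. The matches are a description of letters in these windows, and both motifs were chosen after the sequences had been seen.

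Rack1 itself stood at 80.6 ± 3.14 (SD, n = 3) counts-per-million (CPM) in control and 37.0 ± 2.45 in knockout, a log2 fold change of -1.12 (edgeR adjusted p = 0.000207). Library totals ran from 51894849 to 66163430 units of the deposited estimated counts. CPM values were scaled by TMM, whose factors ran from 0.799 to 1.30, and this scaling bears on every direction given here: with library totals in its place the log2 fold changes were lower by a median of 0.32. The 15 alveolar macrophage markers summed to 80120 to 156400 CPM in control and 92500 to 163000 CPM in knockout, with 2 markers higher and 3 lower. Chil3 made up most of that sum, and the other 14 markers summed to 9117 to 13570 CPM in control and 15570 to 21290 CPM in knockout. Most of the rise of these 14 came from Car4 and Marco. Car4 rose 5.75-fold, from 1047 to 6024 CPM, and Marco 4.31-fold, from 1016 to 4383 CPM. Siglecf, Fcgr1 and Krt79 fell, by 1.59-fold, 1.90-fold and 1.90-fold. Monocyte and interstitial macrophage markers summed to 65.6 to 121.6 CPM in control and 154.2 to 314.4 CPM in knockout, with 3 of 9 higher. Those 3 were C1qa, C1qb and C1qc, which made up most of that sum in every library. The others, Ly6c2, Ccr2, Cx3cr1, Vcan, F13a1 and Plac8, did not pass the test and overlapped between groups. Neutrophil markers summed to 53.4 to 80.0 and 113.0 to 122.8 CPM, with 3 of 9 lower. Among those lower, Ly6g stood at only 17, 11 and 14 count units in control, near the low end of detection, and at 0 in all knockout libraries. Without Retnlg, which stood at 0, 0.243 and 11.9 CPM in control and 63.2, 51.3 and 44.1 CPM in knockout, the neutrophil sums overlapped, at 53.4 to 68.1 and 58.3 to 78.7 CPM. Red cell markers summed to 148.6 to 1174 and 1097 to 1802 CPM, and colon epithelium markers to 17.2 to 19.2 and 0.937 to 1.99 CPM, with 7 of 9 lower. Xist, made from the inactive X chromosome of females, stood at 70.6, 13.8 and 13.4 CPM in control and 0.741, 10.4 and 13.1 CPM in knockout, and the Y-linked Eif2s3y at 0.422, 0.357 and 0.560 CPM in control and 15.99, 2.68 and 0.681 CPM in knockout. The part of these differences in the results below was not tested. In bulk RNA, fewer cells of a type and less RNA per cell cannot be told apart.

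Among the 40 genes, 7 rose in knockout, 3 fell and 30 did not pass the test. The share that passed was 25%, and among all genes tested it was 11.9%, with 5.93% higher and 6.01% lower. The share of all genes depends on the expression filter. With a minimum mean of 10 CPM, 25.3% of all genes passed, and 33 of the 40 genes were tested, with 8 higher and 3 lower. The genes that rose were Nfe2l2, Slc7a11, Txnip, Srxn1, Glrx, Nqo2 and Mgst2, and those that fell were Txnrd2, G6pdx and Gsto1. Groups did not overlap for 13 genes that stood higher and 7 that stood lower in knockout, and they overlapped for 20. Among all genes tested the groups did not overlap for 31.2%. The median log2 fold change of the 40 genes was 0.18, with a range from -0.88 to 1.70, and 0.01 over all genes tested. With library totals in place of TMM the median of the 40 genes was -0.13 and that of all genes -0.31. Then 1 of the 40 genes, Mgst2, was higher, and 5 were lower, namely Txnrd2, G6pdx, Gsto1, Taldo1 and Gpx1. Leaving out a library also ended calls. The genes called higher and lower numbered 2 and 0 without control replicate 1, control replicate 2 or knockout replicate 2, and 6 and 2 without control replicate 3. Leaving out knockout replicate 1 gave 3 and 2, and leaving out knockout replicate 3 gave 4 and 0. The share of all genes that passed also fell, to 5.31%, 6.36% and 8.17% without control replicates 1, 2 and 3. It was 7.36%, 6.73% and 7.51% without knockout replicates 1, 2 and 3. Mgst2 and Txnip passed the test in all 6 of these fits, Slc7a11, Srxn1, Glrx and Gsto1 in 2, Nfe2l2 and Txnrd2 in 1, and G6pdx and Nqo2 in none.

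**Figure D1:**
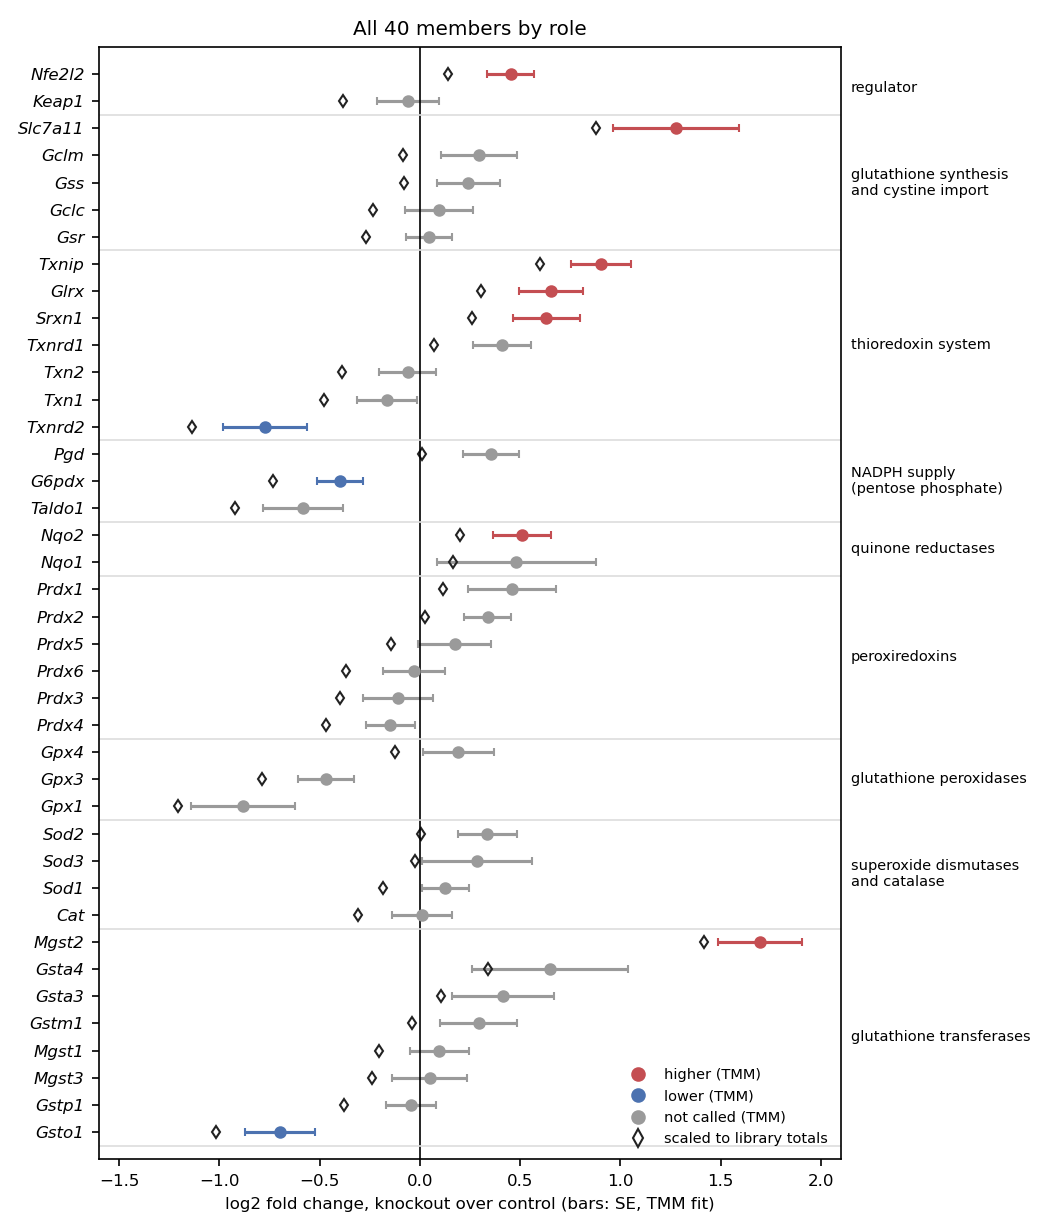
Log2 fold change of each of the 40 genes, knockout over control, grouped by role. Circles are the TMM-scaled fit with SE bars, coloured where the gene passed the test (7 higher, 3 lower), and open diamonds are the same genes scaled to library totals, which lie to the left of the circles by about 0.32.

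Levels between genes were compared in FPKM, which is per length. The median level of the 40 genes was 14.8 FPKM, against 1.16 FPKM over all genes tested, and 35 of the 40 lay above that. Gpx1, the main cytosolic glutathione peroxidase, had the highest level, at 4527 ± 393.1 FPKM (SD, n = 3) in control and 1958 ± 248.4 in knockout. Gstm1, a glutathione transferase, followed at 1186 ± 181.8 and 1153 ± 183.4 FPKM, and Prdx1, a peroxiredoxin, at 966.0 ± 83.6 and 1044 ± 145.8 FPKM. Every control library of Gstm1 lay above every control library of Prdx1, by FPKM, and in knockout the pair overlapped. At the low end stood Slc7a11 at 0.190 ± 0.0971 and 0.35 ± 0.0370 FPKM, Sod3 at 0.556 ± 0.0308 and 0.547 ± 0.0918 FPKM, and Nqo1 at 0.756 ± 0.288 and 0.848 ± 0.32 FPKM. Gpx1 made up 50.3%, 46.0% and 43.1% of the summed FPKM of the 40 genes in control replicates 1, 2 and 3 and 31.7%, 31.7% and 26.6% in knockout. The groups did not overlap in this share, which no scaling between libraries can change.

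**Figure D2:**
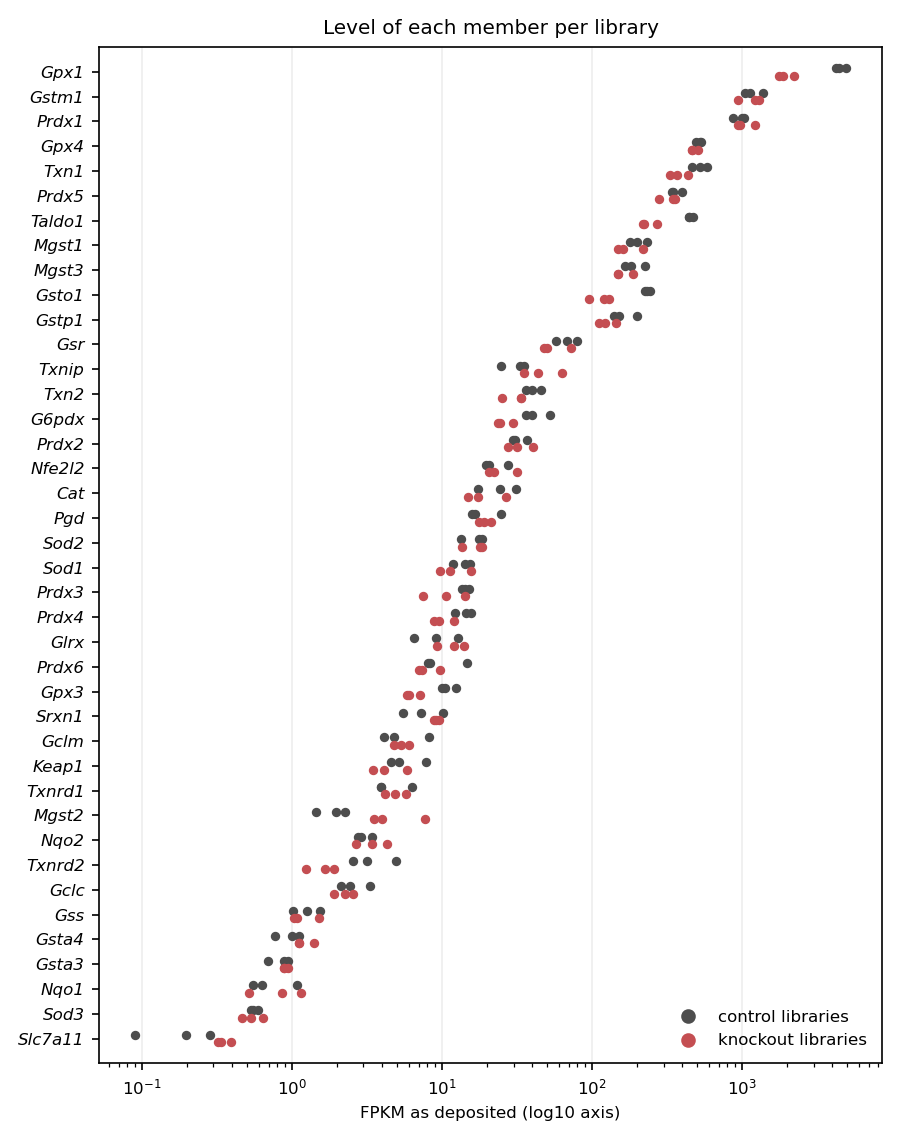
Deposited FPKM of each of the 40 genes in every library on a log10 axis, ordered by mean level. Levels run from 0.270 FPKM for Slc7a11 to 3243 FPKM for Gpx1, and the knockout points of Gpx1 sit left of all its control points.

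Of the regulators, the RNA of the factor rose and that of its inhibitor did not pass the test. Values are given in CPM in the order of replicates 1, 2 and 3 throughout. Nfe2l2 (ENSMUSG00000015839, chromosome 2, 75675513 to 75704641, minus strand, GRCm38) stood at 82.4, 73.8 and 85.6 in control and 110.0, 103.7 and 117.5 in knockout. Every knockout library lay above every control library, and the log2 fold change was 0.45 (SE 0.118, adjusted p = 0.0315). With a library left out it ran from 0.39 to 0.50 and passed the test only without control replicate 3, with adjusted p up to 0.126 in the other 5 fits. It was 0.14 with library totals (adjusted p = 0.772) and 0.42 without the expression filter (adjusted p = 0.0734). Keap1 (ENSMUSG00000003308, chromosome 9, 21229730 to 21239361, minus strand), the adaptor that targets NRF2 for breakdown, stood at 23.6, 23.2 and 30.1 in control and 21.3, 25.6 and 26.8 in knockout. Its groups overlapped, with a log2 fold change of -0.06 (SE 0.153, adjusted p = 0.863).

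Of the 5 genes of cystine import and glutathione synthesis, 1 rose and none fell. Slc7a11 (ENSMUSG00000027737, chromosome 3, 49892526 to 50443614, minus strand), the cystine carrier of the xCT exchanger, stood at 1.39, 2.63 and 3.22 CPM in control and 5.86, 7.22 and 4.59 CPM in knockout. Again the knockout libraries were all higher, with means of 2.41 ± 0.931 and 5.89 ± 1.32 (SD, n = 3) and a log2 fold change of 1.28 (SE 0.314, adjusted p = 0.0245). Its promoter is the third of those printed above. Gclc and Gclm, the catalytic and modifier subunits of the rate-limiting ligase of glutathione synthesis, had log2 fold changes of 0.10 and 0.29 (adjusted p = 0.790 and 0.383), and both overlapped between groups. Gclm shares 14775 bases of its span with Gm17494 on the other strand, which stood at 70.1 CPM in control and 60.2 CPM in knockout (log2 fold change -0.22). With the strand of counting not stated, reads of these 2 genes cannot be told apart there. Gss, glutathione synthetase, stood at 6.70, 7.12 and 7.46 CPM in control and 7.99, 8.45 and 8.72 CPM in knockout, without overlap and without passing the test (log2 fold change 0.24, adjusted p = 0.379). Gsr, which reduces oxidized glutathione, had a log2 fold change of 0.05 (adjusted p = 0.864). With library totals, Gclc, Gclm, Gss and Gsr were below 0, while Slc7a11 stayed above 0 at 0.88 without passing the test.

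Of the 7 thioredoxin genes, 3 rose and 1 fell, and with library totals only the lower one, Txnrd2, passed the test. Txnip (ENSMUSG00000038393, chromosome 3, 96557957 to 96561883, plus strand), which binds and inhibits thioredoxin, stood at 85.9, 104.6 and 84.1 CPM in control and 143.1, 179.5 and 190.8 CPM in knockout. The groups lay far apart, at 91.5 ± 11.3 and 171.2 ± 24.9 (SD, n = 3), with a log2 fold change of 0.90 (SE 0.148, adjusted p = 0.00352). Glrx (ENSMUSG00000021591, chromosome 13, 75839868 to 75850154, plus strand), a glutaredoxin that removes glutathione from protein cysteines, stood at 39.4, 47.8 and 57.5 CPM in control and 65.96, 87.1 and 74.7 CPM in knockout. There was no overlap between groups, with a log2 fold change of 0.65 (SE 0.160, adjusted p = 0.0240). Srxn1 (ENSMUSG00000032802, chromosome 2, 152105516 to 152109322, plus strand), sulfiredoxin, repairs peroxiredoxins that peroxide has overoxidized. It stood at 17.0, 19.5 and 23.4 CPM in control and 34.9, 32.7 and 25.3 CPM in knockout, without overlap but with knockout replicate 3 close to control replicate 3 (log2 fold change 0.63, SE 0.168, adjusted p = 0.0346).

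Of the thioredoxin reductases, the mitochondrial enzyme fell and the cytosolic one did not pass the test. Txnrd2 (ENSMUSG00000075704, chromosome 16, 18426384 to 18479070, plus strand), the mitochondrial enzyme, stood at 12.4, 13.3 and 17.7 CPM in control and 10.9, 7.29 and 7.20 CPM in knockout. All knockout values lay below all control values, and the log2 fold change was -0.77 (SE 0.208, adjusted p = 0.0363). Txnrd1, the cytosolic enzyme, stood at 30.6, 26.4 and 36.3 CPM in control and 38.6, 45.7 and 39.7 CPM in knockout. It did not pass the test (log2 fold change 0.41, SE 0.145, adjusted p = 0.0998). The ratio of Txnrd1 to Txnrd2 CPM was 2.46, 1.99 and 2.06 in control and 3.53, 6.27 and 5.51 in knockout, without overlap. The ratio of Txnip to Txn1 CPM was 0.159, 0.179 and 0.187 in control and 0.318, 0.353 and 0.430 in knockout. Both ratios were chosen after the values had been seen, and they are free of scaling between libraries. Txn1 and Txn2, the cytosolic and mitochondrial thioredoxins, had log2 fold changes of -0.16 and -0.06, with overlapping groups.

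Of the 3 enzymes of the pentose phosphate pathway, which makes NADPH, 1 fell. G6pdx (ENSMUSG00000031400, chromosome X, 74409483 to 74429194, minus strand), glucose-6-phosphate dehydrogenase, stood at 124.2, 117.0 and 131.4 CPM in control and 97.5, 96.2 and 88.8 CPM in knockout. Control and knockout values were separate, with a log2 fold change of -0.40 (SE 0.114, adjusted p = 0.0462). The gene is X-linked, and without knockout replicate 1, the library with the least Xist, the value was -0.43 (adjusted p = 0.1003). The call was lost in every fit with a library left out, at -0.44 to -0.36 (adjusted p up to 0.136). Any link to Xist or to sex was not tested. The whole span of G6pdx overlaps Ikbkg on the other strand, which stood at 7.17 CPM in control and 8.01 CPM in knockout. Taldo1, transaldolase, stood at 1059, 912.1 and 826.0 CPM in control and 768.4, 634.0 and 463.9 CPM in knockout. It did not pass the test (log2 fold change -0.58, adjusted p = 0.0865). Pgd, which oxidizes 6-phosphogluconate, had a log2 fold change of 0.35 (adjusted p = 0.140), also without overlap.

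Both quinone reductases stood above 0 and only Nqo2 passed the test. Nqo2 (ENSMUSG00000046949, chromosome 13, 33964687 to 33988443, plus strand) stood at 12.3, 11.1 and 11.2 CPM in control and 18.1, 14.4 and 16.9 CPM in knockout. The groups did not overlap, with a log2 fold change of 0.51 (SE 0.145, adjusted p = 0.0452). Its whole span overlaps Serpinb6a on the other strand, which rose from 69.7 to 140.4 CPM (log2 fold change 1.01, adjusted p = 0.000871). The strand of counting is not stated, so reads of the pair cannot be told apart. Nqo1, the classical NRF2 target, stood at 1.10, 0.811 and 1.38 CPM in control and 1.76, 1.06 and 1.76 CPM in knockout, near the low end of detection (log2 fold change 0.48, SE 0.397, adjusted p = 0.510).

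No peroxiredoxin passed the test. Prdx1 stood at 2917, 2896 and 2534 CPM in control and 4794, 3784 and 2896 CPM in knockout. Its groups overlapped, since knockout replicate 3 lay below control replicate 1, and the log2 fold change was 0.46 (SE 0.218, adjusted p = 0.219). Prdx2, abundant in red cells, stood at 100.4, 89.6 and 92.0 CPM in control and 126.0, 110.1 and 120.2 CPM in knockout. It stood higher without overlap, at 0.34 (adjusted p = 0.0921). The red cell markers summed to 148.6, 1174 and 181.8 CPM in control and 1802, 1097 and 1102 CPM in knockout. Any link between them and Prdx2 was not tested. Prdx3, Prdx4, Prdx5 and Prdx6 had log2 fold changes of -0.11, -0.15, 0.17 and -0.03.

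Glutathione peroxidases and the superoxide and peroxide enzymes also held no call. Gpx1 (ENSMUSG00000063856, chromosome 9, 108338903 to 108340343, plus strand) stood at 7875, 6048 and 4913 CPM in control and 4189, 3570 and 2467 CPM in knockout. The groups did not overlap, with a log2 fold change of -0.88 (SE 0.260, adjusted p = 0.0517), just outside the threshold. It passed as lower with library totals, DESeq2, median-of-ratios size factors (adjusted p = 0.0498), no expression filter, limma on FPKM as deposited and the replicate block. It also passed without control replicate 3 (adjusted p = 0.0423), and in 8 of 16 alternatives it stayed uncalled. Gpx3, the secreted enzyme, stood at 20.8, 17.3 and 18.3 CPM in control and 13.9, 14.3 and 12.6 CPM in knockout, also without overlap (log2 fold change -0.47, adjusted p = 0.0544). Gpx4, which reduces lipid peroxides in membranes, had a log2 fold change of 0.19 (adjusted p = 0.568). Sod1, Sod2 and Sod3, the cytosolic, mitochondrial and extracellular superoxide dismutases, had values of 0.13, 0.34 and 0.28, and catalase, Cat, one of 0.01, with Sod1, Sod3 and Cat below 0 when scaled to library totals.

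Of 8 glutathione transferases and related enzymes, 1 rose and 1 fell. Mgst2 (ENSMUSG00000074604, chromosome 3, 51660360 to 51682675, plus strand), a microsomal glutathione transferase that can make leukotriene C4, had the largest change of the 40 genes. It stood at 5.98, 7.98 and 5.92 CPM in control and 17.0, 19.6 and 27.7 CPM in knockout. All knockout libraries lay well above all control libraries, with means of 6.63 ± 1.17 and 21.4 ± 5.59 (SD, n = 3) and a log2 fold change of 1.70 (SE 0.209, adjusted p = 0.000724). Gsto1 (ENSMUSG00000025068, chromosome 19, 47854970 to 47864790, plus strand), an omega-class transferase that also reduces dehydroascorbate, stood at 499.6, 471.7 and 379.5 CPM in control and 340.6, 253.9 and 238.3 CPM in knockout. The groups did not overlap, with a log2 fold change of -0.70 (SE 0.174, adjusted p = 0.0259). The other 6 overlapped between groups, from Gsta4 at 0.65 (adjusted p = 0.339) and Gsta3 at 0.41 to Gstm1 at 0.29, Mgst1 at 0.10, Mgst3 at 0.05 and Gstp1 at -0.05. Gstm1 and Gstp1 have near-identical neighbours with which reads may be shared.

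**Figure D3:**
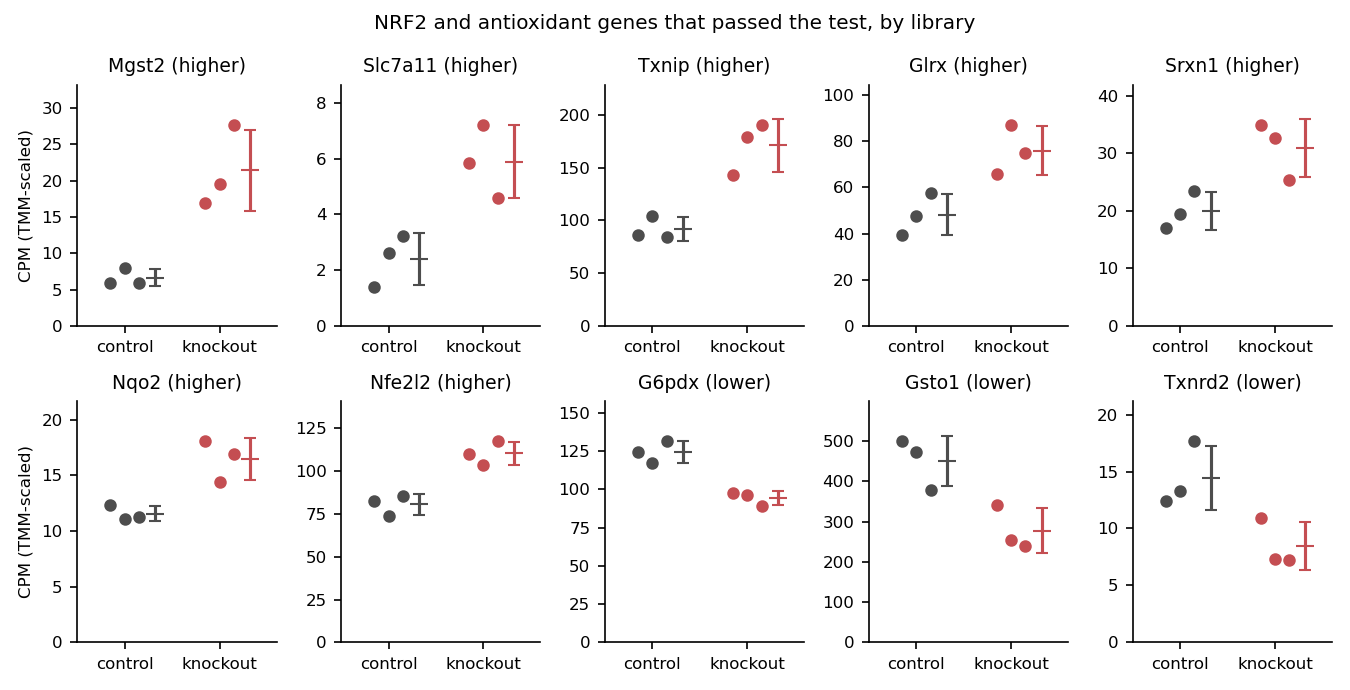
CPM of the 10 genes that passed the test in each library, with the mean and SD beside the points; every axis starts at 0. Each panel shows 3 control and 3 knockout points that do not overlap, and the largest fold between group means is that of Mgst2, from 6.63 to 21.4 CPM.

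Of the 32 other NRF2 target genes listed, 29 were tested, and 7 rose and 2 fell, a share of 31.0% beside 11.9% of all genes. With a minimum mean of 10 CPM, 7 rose and 2 fell, and the share of all genes was 25.3%. Akr1b8, an aldo-keto reductase, stood at 2.13, 2.29 and 5.42 CPM in control and 18.7, 21.5 and 23.3 CPM in knockout (log2 fold change 2.68, adjusted p = 0.000628). Ephx1, the microsomal epoxide hydrolase, rose from 20.6 ± 3.49 to 71.8 ± 12.9 CPM (SD, n = 3; log2 fold change 1.80, adjusted p = 0.000130). Ptgr1, which reduces reactive alkenals and eicosanoids, rose from 14.1 ± 1.51 to 32.9 ± 1.197 CPM (log2 fold change 1.22, adjusted p = 0.000342). Blvrb, a biliverdin reductase, rose from 93.3 to 171.0 CPM, though not past the threshold without control replicate 1 (adjusted p = 0.0519). Over all 16 alternatives Blvrb kept its call in 12, and its log2 fold change fell as low as 0.51. Idh1, the cytosolic NADPH-making isocitrate dehydrogenase, fell from 128.9 ± 6.50 to 82.6 ± 6.77 CPM (log2 fold change -0.64, adjusted p = 0.00667). Hmox1, heme oxygenase, rose from 66.7 ± 13.4 to 121.5 ± 21.0 CPM (log2 fold change 0.86, adjusted p = 0.0105) and was named after its value had been seen. Its call ended without control replicate 1, knockout replicate 1 or knockout replicate 2, with adjusted p up to 0.0606. Over all 16 alternatives Hmox1 kept its call in 10, and its log2 fold change fell as low as 0.49. Akr1b8 has the near copy Akr1b10, which fell, and reads may be shared. Without control replicate 1 the targets that rose numbered 3 and those that fell 1, and with DESeq2 they numbered 9 and 2. Akr1b8, Ephx1, Ptgr1 and Idh1 passed the test in the same direction under all 16 alternatives, as did Mgst2 and the genes Slc3a2, Selenow and Pon2 described next.

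Of 18 genes listed as regulators and partners of NRF2, 17 were tested, with 1 higher and 1 lower. That share was 11.8%, beside 11.9% of all genes. Osgin1, a stress-induced growth inhibitor, rose from 1.82 to 4.92 CPM (log2 fold change 1.43, adjusted p = 0.0262), and kept its call in 1 of the 6 fits with a library left out, that without control replicate 3. Maff, a small MAF partner, fell from 23.1 to 11.8 CPM (log2 fold change -0.97, adjusted p = 0.0111), with the call lost without control replicate 1 (adjusted p = 0.0503). Of 30 other glutathione and glutaredoxin genes tested, 2 rose and 1 fell. Slc3a2, the heavy chain that pairs with the Slc7a11 product, rose from 167.5 ± 28.2 to 374.4 ± 33.2 CPM (log2 fold change 1.16, adjusted p = 0.00125), 2.24-fold. Gstt2, a theta-class transferase, rose (0.99, adjusted p = 0.0209) and Hagh, the glyoxalase that clears S-lactoylglutathione, fell (-0.61, adjusted p = 0.0302). With a library left out, Gstt2 kept its call in 3 of 6 fits, not without control replicate 1, control replicate 3 or knockout replicate 3. Hagh kept its call in 2 of 6, those without control replicate 1 or knockout replicate 3.

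In the other thioredoxin, methionine sulfoxide reductase and sestrin genes, 1 of 19 tested rose and 2 fell. That share was 15.8%, beside 11.9% of all genes. Pon2, a lactonase of membranes, fell from 192.2 to 118.7 CPM (log2 fold change -0.70, adjusted p = 0.00346) and Txndc5, a disulfide isomerase, had a log2 fold change of -0.62 (adjusted p = 0.0228). Txnl4a, which rose by 0.84, is a splicing protein named for its thioredoxin fold. Of 19 selenoprotein genes, 1 rose and 2 fell (15.8%), with a median log2 fold change of -0.21 beside 0.01 over all genes. Selenow fell from 308.4 ± 5.26 to 159.2 ± 20.8 CPM (SD, n = 3; log2 fold change -0.95, adjusted p = 0.00164), and Selenop, the selenium carrier, from 190.4 to 119.5 CPM. Selenok, a protein of the endoplasmic reticulum, rose from 191.4 to 281.0 CPM (log2 fold change 0.55, adjusted p = 0.0315). With a library left out, Selenok passed the test in 1 of 6 fits, that without knockout replicate 2, with adjusted p up to 0.110. Selenop and Txndc5 passed in 2 of 6, those without control replicate 3 or knockout replicate 3. With library totals or limma on FPKM as deposited, Selenok was not called and its log2 fold change fell as low as 0.22. Of 17 listed NADPH oxidase genes, 10 were tested, with 1 higher and 1 lower, a share of 20.0% beside 11.9% of all genes. Rac2, the GTPase of the phagocyte oxidase, rose from 247.0 to 472.5 CPM (log2 fold change 0.94, adjusted p = 0.00364). Duox2 passed as lower, with 18, 12 and 20 count units in control and 0 in every knockout library, and its call was lost in each fit with a library left out.

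**Figure D4:**
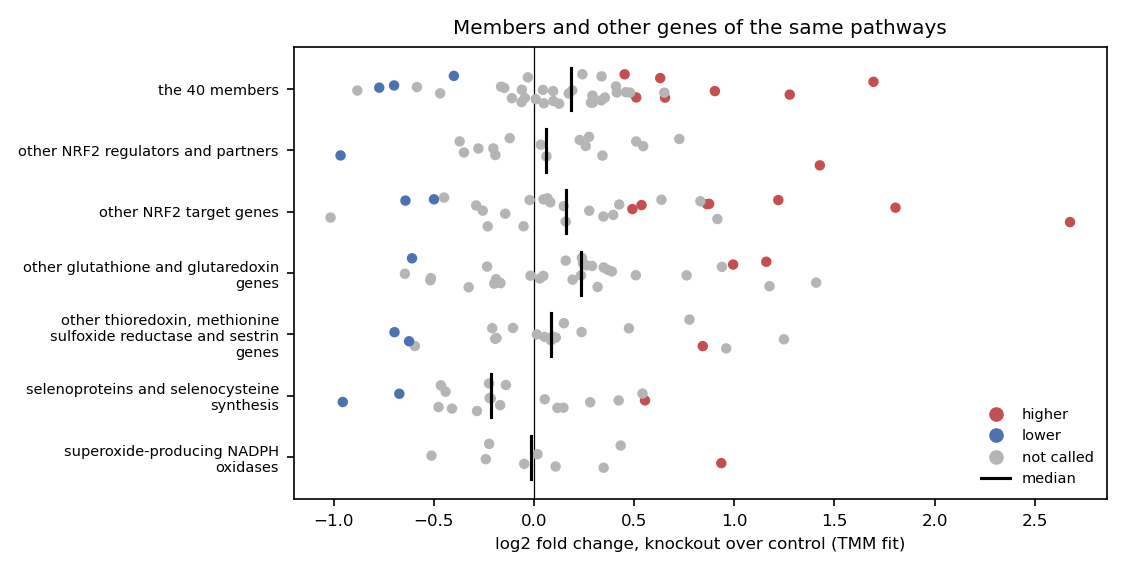
Log2 fold change of the 40 genes and of 6 other pathway lists, 1 dot per tested gene, coloured where it passed the test, with a bar at the median of each list. The medians run from -0.21 for selenoproteins to 0.24 for glutathione genes, and Duox2 is left out of the plot because its knockout libraries are all at 0.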

How the data were processed

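RNA sequencing libraries of mouse alveolar macrophages were read in 2 groups of 3 libraries, as the labels group them. GRCm38 is the build in the submitters' processing notes, which also list HISAT2, StringTie, edgeR, DESeq2, FastQC and cutadapt with no role given. Per the file headers, the authors deposited 2 values for each gene in each library, an expected (estimated) count and an FPKM. The estimated counts are whole numbers as deposited, and about 4 units were taken as 1 read pair. The deposited FPKM values carry no TMM scaling and served only to compare levels between genes and as an alternative test.

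The members and lists were chosen with earlier results of these data known. The counts were tested with edgeR 4.0.16 in R 4.3.3 on the whole table: default expression filter, TMM scaling, no covariate, quasi-likelihood test, Benjamini-Hochberg adjustment over the 14797 genes tested, and a threshold of 0.05. Standard errors were obtained by dividing the log2 fold change by the root of edgeR's F. All members that passed the test are given in full, with Nfe2l2, Keap1 and Rack1, and up to 5 genes that passed it from each of 6 pathway lists. Other genes given in full were chosen after their values were seen. Alternatives used limma 3.58.1, DESeq2 1.42.0, other scalings and filters, a block for the replicate number, and the removal of 1 library at a time. The test was tested on simulated data. Tables and plots were made with pandas 2.3.3, numpy 2.4.6 and matplotlib 3.10.9. Of the 40 members, 33 have the same coordinates in GENCODE M21. No value of a single gene was tested by permutation, since 3 against 3 cannot go below a p of 0.1.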

Additional observations from a re-analysis of the deposited data

How the results depend on the processing

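The 16 alternatives are those planned. Median-of-ratios size factors, and counts divided by 4, kept all 10 calls. The former added Gpx1 as lower and the latter Gpx3. DESeq2 kept all 10 calls and gave 6 members lower, adding Taldo1, Gpx1 and Gpx3. The other NRF2 targets higher numbered 9 with DESeq2 and with the replicate block, 5 with library totals and with limma on FPKM as deposited, and 3 to 6 with a library left out, against 7.

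With library totals, 1 member was higher and 5 were lower, 290 genes in all were higher, and the members' median was -0.13. Log2 fold changes then fell below 0 for Gclc (-0.23), Gclm (-0.0822), Gss (-0.0806), Gsr (-0.27), Prdx5 (-0.14), Gpx4 (-0.12), Sod1 (-0.18), Sod3 (-0.0263), Cat (-0.31), Gstm1 (-0.0390), Mgst1 (-0.21) and Mgst3 (-0.24). With limma on log2(FPKM + 1), 1 member was higher and 7 lower, 223 genes in all were higher, and the median was -0.17, with Gclc at -0.16, Gclm at -0.0284, Gss at -0.0453, Gsr at -0.28, Prdx5 at -0.15, Gpx4 at -0.12, Sod1 at -0.19, Cat at -0.30, Gstm1 at -0.0431, Mgst1 at -0.22 and Mgst3 at -0.23. With a pseudocount of 0.1 the numbers were 1 and 7, with 219 genes higher and a median of -0.21, and Gclc at -0.21, Gclm at -0.0258, Gss at -0.0758, Gsr at -0.28, Prdx5 at -0.15, Gpx4 at -0.12, Sod1 at -0.20, Cat at -0.31, Gstm1 at -0.0431, Mgst1 at -0.22 and Mgst3 at -0.24. These 3 settings share the lack of both TMM and size-factor scaling. With size factors in place of TMM the members' median stayed above 0. It was 0.17 with DESeq2, 0.17 with median-of-ratios factors and 0.14 with size-factor FPKM. Cat, near 0, stood at -0.0073 with DESeq2, -0.0011 with median-of-ratios factors and -0.0239 without the expression filter, and Prdx6 at 0.0134 with a minimum of 10 CPM and 0.0188 with size-factor FPKM.

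Leaving out 1 library at a time gave 2 to 6 members higher and 0 to 2 lower, 455 to 691 genes higher and 372 to 565 lower in all, and a median of 0.13 to 0.24. Over these fits Keap1 ran from -0.13 to 0.0691, Gclc from -0.0286 to 0.17, Txn2 from -0.21 to 0.00617, Prdx3 from -0.20 to 0.0420, Prdx6 from -0.17 to 0.15, Cat from -0.11 to 0.10, Mgst1 from -0.0149 to 0.20 and Mgst3 from -0.0872 to 0.32. The cause was not tested.

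The replicate block called 5 members higher and 3 lower, with 9.93% of all genes called. It kept 6 of the 10 calls, losing Txnrd2, Srxn1, G6pdx and Nqo2, and added Taldo1 and Gpx1 as lower. Deviations from the group mean were correlated between control and knockout libraries. Same-numbered libraries gave 0.0276, -0.0398 and 0.000329, and the others ran from -0.04985 to 0.0499. Same-numbered libraries thus did not stand out, which does not settle whether the numbers pair them.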
